A study of Mus musculus with 39 samples.

Results

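The 9 genes described here encode the proteinaceous core of the meiotic chromosome. They are the axis or lateral element genes Sycp2, Sycp3, Hormad1 and Hormad2, the transverse filament gene Sycp1, and the central element genes Syce1, Syce2, Syce3 and Tex12. They were taken by symbol from the 32285 genes of 2 droplet single-cell RNA libraries of whole mouse testis, and all 9 were present in both. The study compared mice that lack the X-linked histone H3 lysine 27 demethylase Kdm6a (Utx) in germ cells with controls. The control library came from a Kdm6a fl/y; Cre- testis, and the conditional knockout (cKO) library from a Kdm6a fl/y; Ddx4-Cre+ testis. Both genotypes thus carry the floxed allele, and the germ-cell promoter of Ddx4 drives Cre in the cKO. Open chromatin (ATAC-seq) and H3K27me3 (CUT&Tag) were profiled by the study in sorted cKIT+ spermatogonia of the same 2 genotypes, each assay in 2 control and 3 cKO libraries, with 1 IgG library from a control.

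In meiotic prophase each pair of sister chromatids is organised as loops on a protein axis, which SYCP2 and SYCP3 help to build and to which the HORMA-domain proteins HORMAD1 and HORMAD2 bind until synapsis removes most of them. SYCP1 dimers bridge the axes of the homologues like the teeth of a zipper. SYCE1, SYCE2, SYCE3 and TEX12 join the SYCP1 ends in the middle, and the finished structure, the synaptonemal complex, is taken apart after pachytene.

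The start-site regions of 4 of the genes are shown first, because open chromatin at start sites and a pair of shared sequence motifs are described further on. Each run gives the 160 bases before the RefSeq start site in build GRCm38.p6, read 5′ to 3′ on the strand of the gene. Capitals mark CACGTG, the E-box that MGA and MAX bind, and TCCCGC, a core of E2F sites, or its reverse complement GCGGGA.
Sycp1: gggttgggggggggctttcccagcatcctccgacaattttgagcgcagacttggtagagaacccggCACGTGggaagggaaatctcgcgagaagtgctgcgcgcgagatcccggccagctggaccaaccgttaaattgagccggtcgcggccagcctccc
Sycp3: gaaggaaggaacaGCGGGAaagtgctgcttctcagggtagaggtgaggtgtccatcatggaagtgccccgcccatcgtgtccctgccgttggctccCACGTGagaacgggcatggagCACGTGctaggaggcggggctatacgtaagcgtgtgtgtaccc
Tex12: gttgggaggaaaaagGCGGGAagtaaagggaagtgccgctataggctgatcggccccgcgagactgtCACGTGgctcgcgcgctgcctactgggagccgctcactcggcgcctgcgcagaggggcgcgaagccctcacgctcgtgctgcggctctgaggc
Hormad1: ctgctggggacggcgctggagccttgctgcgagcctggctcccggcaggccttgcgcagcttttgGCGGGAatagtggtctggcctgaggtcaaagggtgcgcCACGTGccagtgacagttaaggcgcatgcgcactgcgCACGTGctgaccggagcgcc
These regions lie at chr3:102936101-102936260 (minus strand) for Sycp1, chr10:88459427-88459586 (plus strand) for Sycp3, chr9:50561269-50561428 (minus strand) for Tex12 and chr3:95559517-95559676 (plus strand) for Hormad1. All 4 end 1 base before the annotated start site. The genes themselves span chr3:102818499-102936100 (Sycp1), chr2:178345295-178407776 (Sycp2), chr10:88459587-88473236 (Sycp3), chr7:140777229-140787854 (Syce1), chr8:84872111-84887446 (Syce2), chr15:89390174-89410503 (Syce3), chr9:50557148-50561268 (Tex12), chr3:95559677-95587863 (Hormad1) and chr11:4345801-4441198 (Hormad2) in the same build, and all are protein-coding.

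Barcodes with at least 3000 UMIs (unique molecular identifiers, each standing for 1 captured RNA molecule) were taken as cells, which gave 11252 in the control and 8520 in the cKO library, with medians of 8410.5 and 8499 UMIs. The libraries shared 30 of these barcodes. Cells were assigned to stages by marker genes that include none of the 9. Levels are UMIs per 1000000 UMIs of a stage (CPM), and 3′ UMIs are not scaled by transcript length. The RNA outside cells, read from barcodes under 100 UMIs, held 1201 CPM of the 9 genes together in the control library and 1191 CPM in the cKO library. There was 1 library per genotype, so no test of genotype is possible, and every interval given is a 95% interval for counting error only.

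Kdm6a itself was counted first. The leptotene-zygotene gate held 108 Kdm6a UMIs in the control library (28.4 CPM) and 8 in the cKO library (4.47 CPM), a log2 ratio of -2.67 (-3.92 to -1.64). At meiotic entry the counts were 59 and 2 (52.2 and 6.35 CPM, log2 -3.04, -6.12 to -1.12). In spermatogonia they were 21 and 10 (log2 -0.56, -1.81 to 0.59). In Leydig cells, where Ddx4-Cre is not active, they were 12 and 7 (log2 -0.53, -2.11 to 0.93). The intervals in spermatogonia and Leydig cells both include 0. Free RNA held Kdm6a at 4.31 CPM in the control and 6.88 CPM in the cKO library. The 3′ tags may lie outside the deleted exons, so the Kdm6a count is only a partial check of the deletion.

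The axis genes were highest in leptotene-zygotene spermatocytes. Sycp3, a coiled-coil protein of the lateral element, stood at 2397 CPM (2348 to 2446) in the control library and 2744 CPM (2667 to 2821) in the cKO library. At meiotic entry it stood at 1056 and 1034 CPM, and in spermatogonia at 312 and 284 CPM. In both libraries each of these steps was upward.

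Sycp2, the axis partner of SYCP3, reached 997 CPM (966 to 1029) in the control and 882 CPM (839 to 926) in the cKO leptotene-zygotene gate. Hormad1, which recruits checkpoint and synapsis factors to unsynapsed axes, reached 937 CPM (906 to 968) and 919 CPM (875 to 965). Hormad2, its paralog with a role in the checkpoint on unsynapsed chromosomes, was the least abundant of the 9 there, at 78.2 CPM (69.5 to 87.6) and 69.8 CPM (58.1 to 83.2). All 4 axis genes had their highest level in this gate in both libraries, with no overlap of the interval with that of the next stage.

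Sycp1, the transverse filament gene, had the highest UMI level of the 9, with 2944 CPM (2890 to 2999) in control and 3093 CPM (3012 to 3176) in cKO leptotene-zygotene cells. It was already at 567 and 537 CPM in spermatogonia, 3.75 and 3.81 times its level in free RNA. Tex12, the central element partner of SYCE2, followed the same course at a lower level, with 191 CPM (178 to 206) and 192 CPM (172 to 213) at leptotene-zygotene. The Tex12 interval at leptotene-zygotene overlapped that at meiotic entry in the control library (170 CPM). In the cKO library it overlapped that of pachytene cells without Pou5f2 (185 CPM), so its peak is not placed between these neighbours.

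Pachytene cells were divided by Pou5f2, one of the pachytene markers, into cells with none (810 control and 685 cKO cells), cells under 200 CPM (488 and 317) and cells at or above 200 CPM (540 and 346). Sycp1 stood at 1695, 690 and 263 CPM over these bins in the control library and at 1774, 673 and 252 CPM in the cKO library. Sycp3 stood at 1012, 586 and 405 CPM, and at 1066, 580 and 394 CPM. The bins are ordered by Pou5f2 alone, and whether this is their order in time was not tested. The 4 axis genes, Sycp1 and Tex12 were all lower in each next bin, in both libraries. Sycp2 was the least reduced, 2.53 times lower in the last bin than at leptotene-zygotene in the control and 2.86 times in the cKO library. Hormad2 was 11.8 times lower in the control library and Sycp1 12.3 times lower in the cKO library, the largest differences among the 6 genes. Median depth per cell also differed across the bins, at 12668, 24228 and 31744 UMIs in control and 11966, 20580 and 27310 UMIs in cKO cells, and its part in the bins was not tested.

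The central element genes other than Tex12 had other courses. Syce1, a core central element protein, stood at 317 CPM (299 to 335) in control and 312 CPM (287 to 339) in cKO leptotene-zygotene cells, 0.80 and 0.74 times its level in free RNA. Its highest level came in the last pachytene bin, at 741 CPM (728 to 754) and 796 CPM (778 to 815), and the diplotene-division gate stood next at 715 and 779 CPM with overlapping intervals. Syce1 was therefore 2.34-fold higher in the last pachytene bin than at leptotene-zygotene in the control library and 2.55-fold higher in the cKO library. Sycp1 was lower in that bin.

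Syce2, which forms fibres with TEX12 along the central element, was high at meiotic entry and again in elongating spermatids. It stood at 461 CPM (422 to 502) and 492 CPM (417 to 576) at meiotic entry and at 338 and 268 CPM at leptotene-zygotene. In the last pachytene bin it was at its lowest, 47.6 CPM (44.3 to 51.0) in control and 54.5 CPM (49.8 to 59.6) in cKO cells. Its highest level was in elongating spermatids, at 582 CPM (574 to 589) and 570 CPM (561 to 579), although in the cKO library that interval overlapped the one at meiotic entry.

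Syce3, needed to load the other central element proteins, had its highest level at leptotene-zygotene (408 CPM in control and 447 CPM in cKO cells) and its lowest in the last pachytene bin (104 and 118 CPM). A further high point followed in round spermatids, at 321 CPM (314 to 327) and 358 CPM (351 to 365), 1.88 and 1.87 times free RNA. In elongating spermatids Syce3 was at 161 and 153 CPM, below its level in free RNA.

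**Figure D1:**
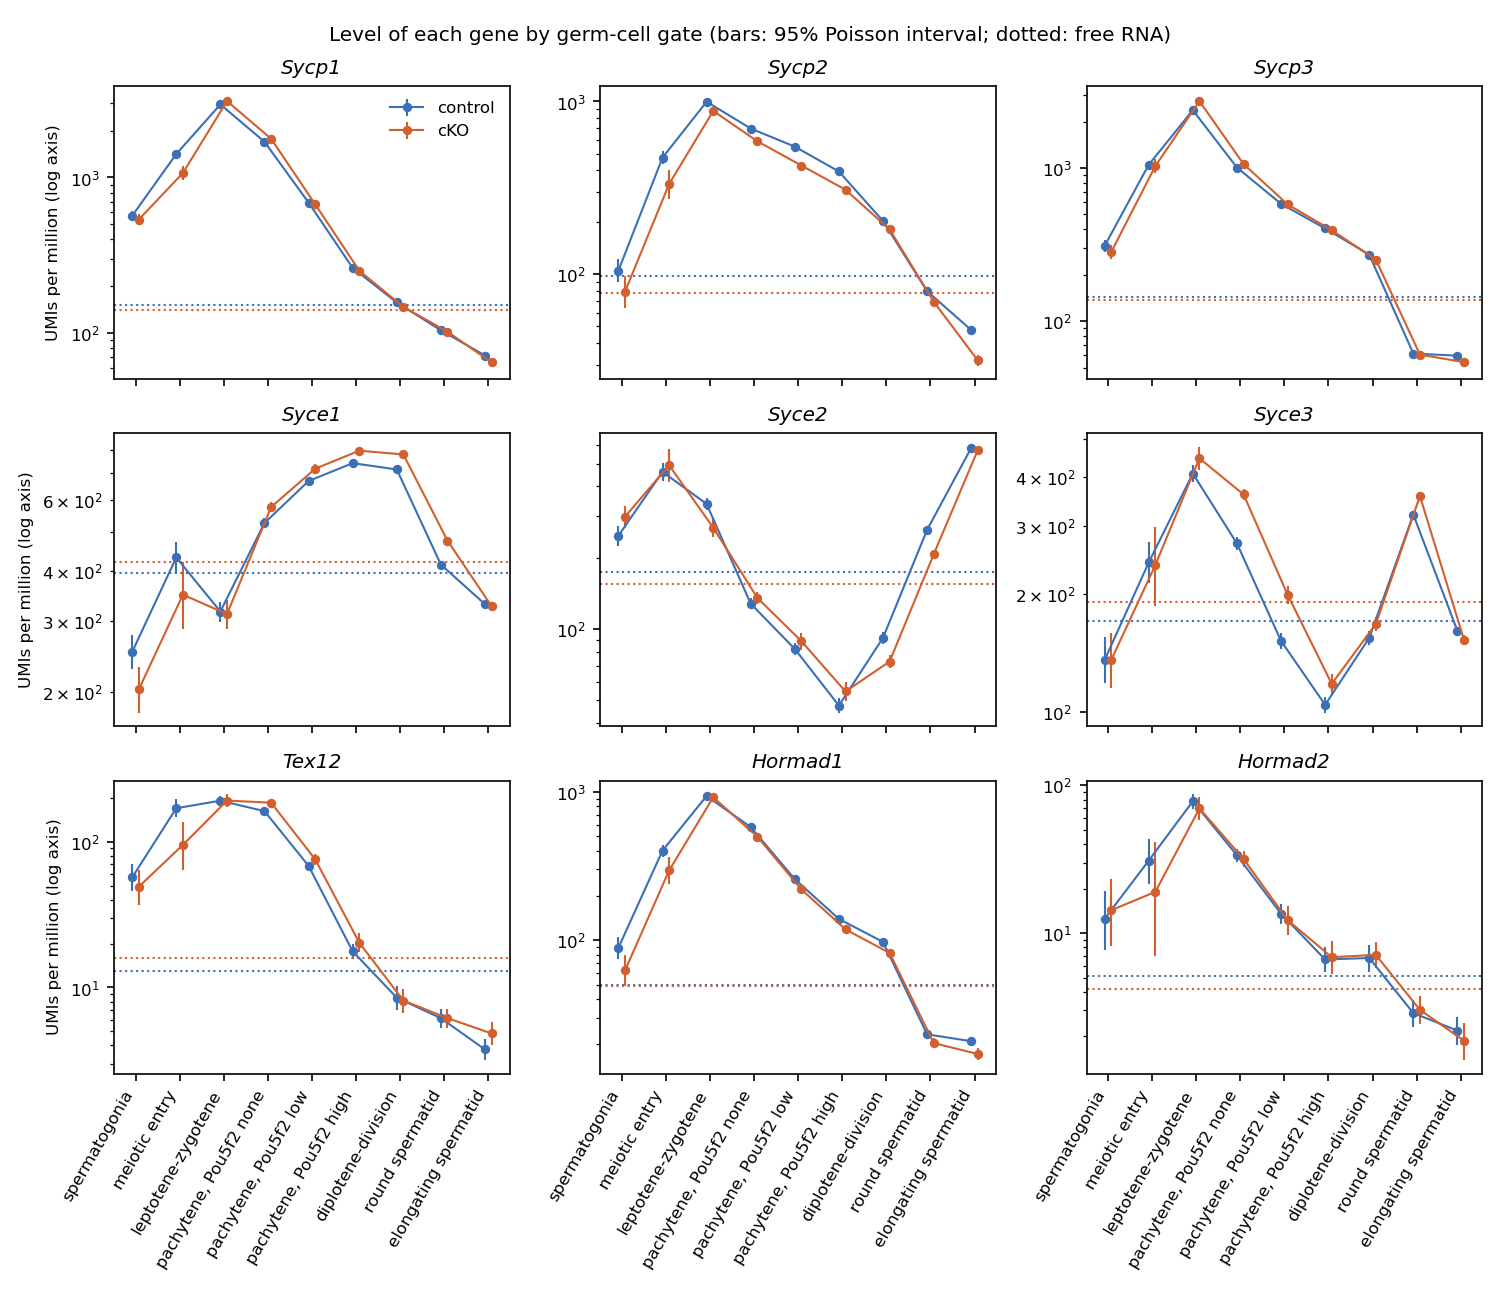
Level of each of the 9 genes (CPM, log axis, scale differs by panel) in 9 germ-cell gates, for the control (blue) and cKO (orange) libraries. Gates are in developmental order, with the pachytene bins ordered by Pou5f2. Bars are 95% Poisson intervals and dotted lines the level in free RNA. Sycp1, Sycp2, Sycp3, Hormad1 and Hormad2 are highest at leptotene-zygotene, and Tex12 has overlapping intervals there and in a neighbouring gate. Syce1 is highest in the last pachytene bin. Syce2 is high at meiotic entry and in elongating spermatids and lowest in the last pachytene bin.

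Over the 18 points made by 9 gates and 2 libraries, the 15 pairs among Sycp1, Sycp2, Sycp3, Tex12, Hormad1 and Hormad2 had Pearson correlations of log2(CPM + 10) from 0.81 (Sycp2 and Tex12) to 0.99 (Sycp1 and Tex12). Against the mean of the other 8 genes, Syce3 stood at r = 0.49, Syce1 at -0.13 and Syce2 at -0.11, and Syce1 and Syce2 stood at -0.83 against each other. These correlations describe 2 libraries. Points of the same library hold different cells of the same testis and share its depth and free RNA, so they are not independent. The 14905 genes with at least 200 UMIs were ranked by likeness to the mean of the 9, with the 9 and the gate markers left out. The most alike were Cbfa2t2 (r = 0.99), Zswim8 (r = 0.99), Gapvd1 (r = 0.98), Dop1a (r = 0.98) and Qsox2 (r = 0.98). Cbfa2t2, a transcriptional corepressor, stood at 52.6 CPM in control and 51.4 CPM in cKO leptotene-zygotene cells and at 2.14 and 1.72 CPM in elongating spermatids.

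The share of cells with at least 1 UMI was compared after thinning each cell to 3000 UMIs. Sycp1 was seen in 96.6% of control and 96.7% of cKO leptotene-zygotene cells (98.0% and 98.1% before thinning). In Leydig cells, which should lack meiotic transcripts, it was seen in 16.2% and 19.8% of thinned cells (34.3% and 30.7% before thinning), at median depths of 8173 and 6746 UMIs against 4481.5 and 4550 UMIs in the leptotene-zygotene gate. Tex12 was seen in 39.4% and 42.3% of thinned leptotene-zygotene cells (55.9% and 58.3% before thinning) and in 0.952% and 0% of thinned Leydig cells (6.67% and 2.97% before thinning). Hormad2 was seen in 20.1% and 16.9% of thinned leptotene-zygotene cells (31.0% and 29.6% before thinning) and in 0% of thinned Leydig cells of both libraries (1.90% and 0.990% before thinning). Taken as 3 counts, a count of 0 allows up to 2.86% of the 105 control and 2.97% of the 101 cKO Leydig cells, and the exact binomial upper bounds are 3.45% and 3.59%. At equal depth both genes were thus seen in a smaller share of Leydig cells than of leptotene-zygotene cells.

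Syce2 was seen in 79.4% of thinned control and 80.2% of thinned cKO elongating spermatids (95.1% and 94.8% before thinning, at median depths of 6853 and 6287 UMIs). The Leydig shares were 24.8% and 20.8% (44.8% and 32.7% before thinning). Sycp1 in the same elongating spermatids was seen in 19.4% and 14.6% of thinned cells, near its Leydig share. The Sertoli gate was not used as a background, since it held 2.77 and 2.79 times the free-RNA level of Sycp3 and 3.18 and 3.09 times that of Sycp1.

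**Figure D2:**
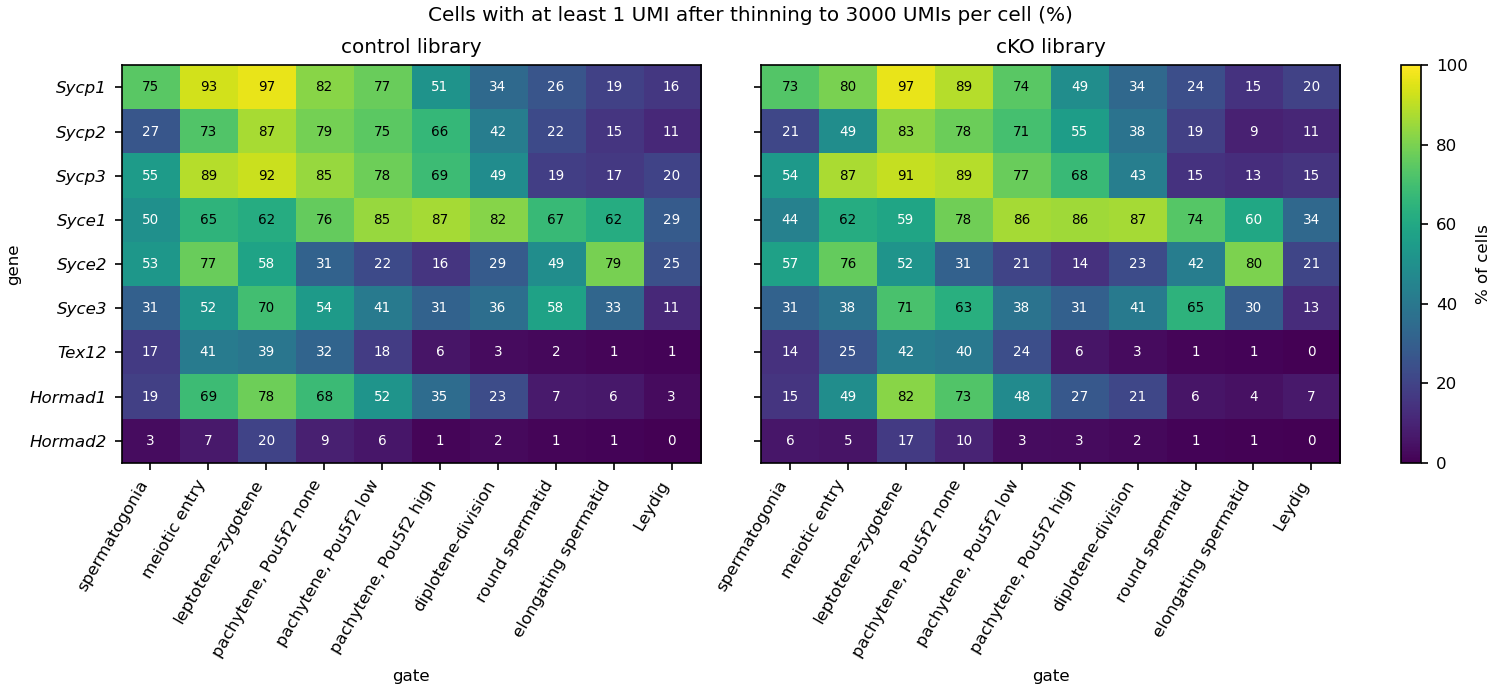
Share of cells (%) with at least 1 UMI of each gene (rows) after thinning every cell to 3000 UMIs, by gate (columns), in the control and cKO libraries, with the Leydig gate as a somatic background in the last column. The leptotene-zygotene column is the brightest for Sycp1, Sycp2 and Sycp3, while Syce2 is seen in 79.4% and 80.2% of elongating spermatids.

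In elongating spermatids the 4 axis genes, Sycp1 and Tex12 lay between 0.29 and 0.49 times their level in free RNA in the control library and between 0.30 and 0.46 times in the cKO library. Syce2 lay at 3.33 and 3.67 times free RNA, Syce3 at 0.94 and 0.80 times and Syce1 at 0.83 and 0.78 times. The ratio to free RNA thus differed between genes within each of these gates. Syce2 was 1.72-fold higher in elongating spermatids than at leptotene-zygotene in the control library (log2 0.78, 0.70 to 0.87) and 2.13-fold higher in the cKO library (log2 1.09, 0.96 to 1.22). The RefSeq span of Syce2 overlaps that of Gcdh, a mitochondrial dehydrogenase gene, and Gcdh had 7 UMIs in control and 9 in cKO elongating spermatids against 22307 and 14619 of Syce2. The span of Sycp3 overlaps that of Chpt1, a phospholipid synthesis gene, which stood at 218 CPM in control and 199 CPM in cKO elongating spermatids, above the 59.7 and 54.2 CPM of Sycp3. The labels do not say how strand was used in counting, so reads of overlapping genes may not be told apart.

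**Figure D3:**
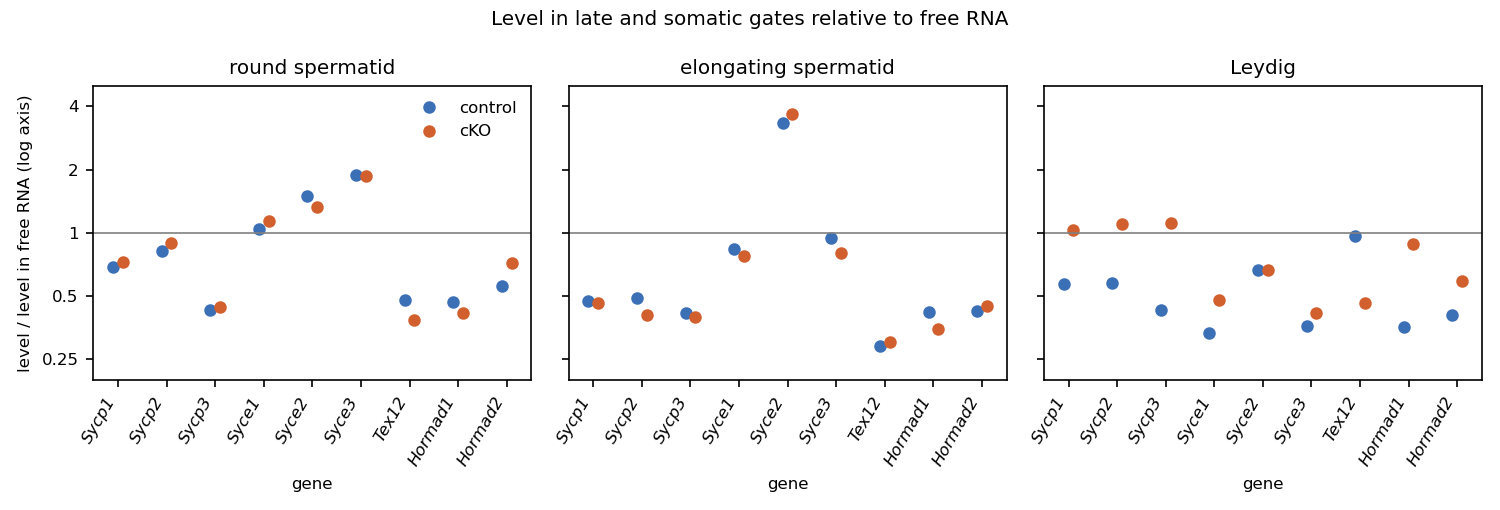
Level of each gene divided by its level in free RNA (log axis, line at 1) in round spermatids, elongating spermatids and Leydig cells of the control (blue) and cKO (orange) libraries. Syce2 in elongating spermatids, at 3.33 and 3.67, is far above the line, and Syce3 in round spermatids is at 1.88 and 1.87.

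The genotypes were compared stage by stage, with 1.5-fold as the size at which a gene was counted, among genes with at least 50 UMIs over both libraries. At leptotene-zygotene 0 of the 9 genes passed 1.5-fold, where 15.8% of 9207 genes did. Hormad2, the least counted of the 9 there, had 297 control and 125 cKO UMIs. The share over all genes, here and below, includes genes down to 50 UMIs, where counting error is larger. The largest differences there were Syce2 at 338 CPM in control and 268 CPM in cKO cells (log2 -0.33, -0.49 to -0.18) and Sycp3 at 2397 and 2744 CPM (log2 0.20, 0.14 to 0.25). The Syce2 value moved with the processing, to -0.11 with a minimum of 2000 UMIs, to -0.15 with stages from clusters and to -0.50 with free RNA subtracted. Within the 2 clusters named leptotene-zygotene by markers it was -0.07 (337 control and 243 cKO cells, at 233 and 222 CPM) and -0.06 (268 and 98 cells, at 433 and 414 CPM). The 9 genes summed to 8607 CPM in control and 8926 CPM in cKO cells, a log2 ratio of 0.05 (0.03 to 0.08). Sycp1 and Sycp3 held 11186 and 9106 of the 32703 control UMIs in this sum. Of the 9 genes, 5 had a ratio below 0 and 4 above. Within the same 2 clusters the sum was 0.06 (0.04 to 0.09) and -0.21 (-0.27 to -0.16). Scrublet marked 3.45% and 24.3% of the cells of these clusters as doublets. The leptotene-zygotene gate itself held 5.76% of control and 3.60% of cKO cells.

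Other contents of the leptotene-zygotene gate also differed between the libraries. Its own 10 markers summed to 1623 CPM in control and 1141 CPM in cKO cells, and the 8 elongating spermatid markers, which include the protamines, to 24806 and 16932 CPM, with none at 0 in either library. After free RNA was subtracted the log2 ratio of the 9 summed genes was -0.14. The amount subtracted was set from Prm1, Prm2, Tnp1 and Tnp2, which are among these elongating spermatid markers, and so differed with them. Beyond that subtraction, the part of these differences in the ratios was not tested.

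In pachytene cells 0 of the 9 genes passed 1.5-fold (6.08% of all genes did), and the largest difference was Syce3 at 165 CPM in control and 227 CPM in cKO cells (log2 0.47, 0.41 to 0.52). The 9 genes summed to a log2 ratio of 0.09 (0.08 to 0.11) over all pachytene cells, but to 0.03, -0.04 and -0.03 within the 3 Pou5f2 bins. Within each bin too 0 of 9 genes passed 1.5-fold, against 6.83%, 7.69% and 6.37% of all genes. Tex12, at 0.37 over all pachytene cells, stood at 0.19, 0.15 and 0.20 within them. Syce3 kept a log2 ratio of 0.42 (0.34 to 0.49), 0.39 (0.29 to 0.50) and 0.18 (0.07 to 0.29). Free RNA also held more Syce3 in the cKO library, 191 against 171 CPM, and in the last bin Syce3 lay at 0.61 and 0.62 times free RNA. In the first bin it lay at 1.58 and 1.89 times free RNA, and in the middle bin at 0.89 and 1.05 times. With free RNA subtracted over all pachytene cells the log2 ratio of Syce3 was 0.53, and the subtraction was not run within the bins. For Sycp1 the log2 ratio of 0.21 over all pachytene cells became 0.07, -0.04 and -0.06.

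**Figure D4:**
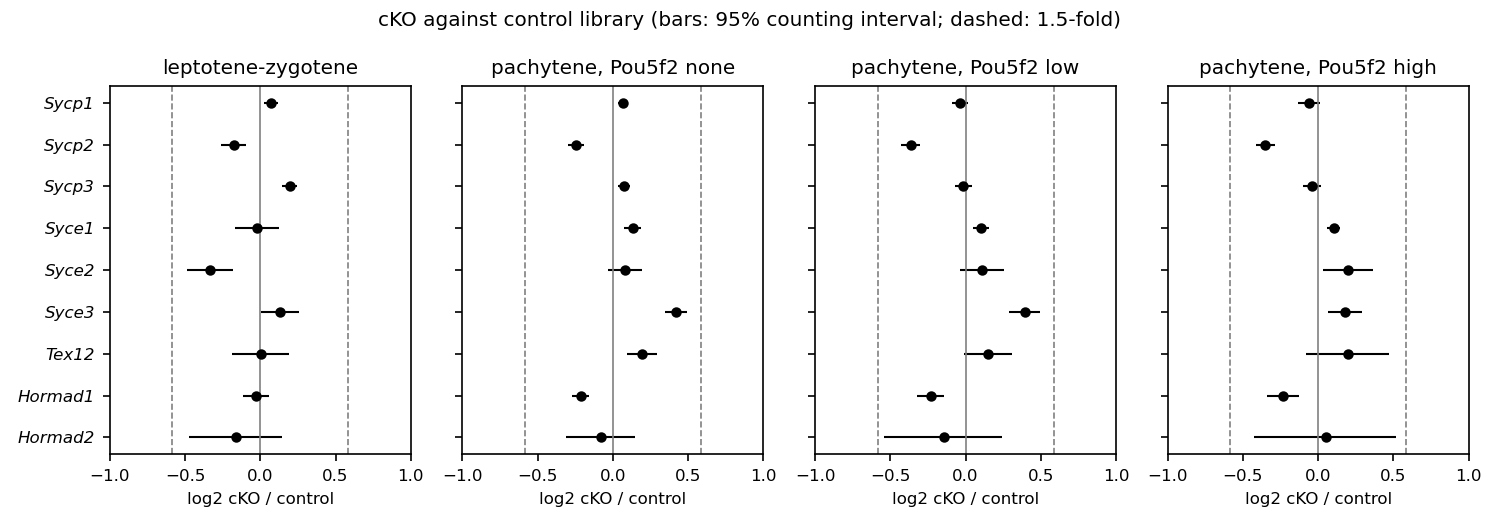
Log2 ratio of the level in the cKO library over the control library for each gene in the leptotene-zygotene gate and the 3 pachytene bins, with 95% counting intervals as bars and dashed lines at 1.5-fold. No point passes a dashed line; Sycp2 and Hormad1 lie left of 0 in all 3 bins and Syce1, Syce2, Syce3 and Tex12 right of it, with all 3 intervals clear of 0 for Sycp2, Hormad1, Syce1 and Syce3.

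Sycp2 was lower in the cKO library in all 7 stages, with intervals below 0 in each. It stood at 525 CPM in control and 441 CPM in cKO pachytene cells (log2 -0.25, -0.28 to -0.22), and at -0.24, -0.36 and -0.35 in the 3 bins. In elongating spermatids it stood at 47.7 and 31.8 CPM, log2 -0.58 (-0.71 to -0.46), just inside 1.5-fold. It was past 1.5-fold there with a minimum of 2000 UMIs (-0.61), in cells clear of the next gate (-0.67), without doublets (-0.75) and with stages from clusters (-0.71), so that call depended on the processing. The free RNA also held less Sycp2 in the cKO library, 77.8 against 97.4 CPM, and after its subtraction the leptotene-zygotene ratio was -0.38 in place of -0.18. Over 9 alternatives that ratio ran from -0.38 to -0.09, below 0 in all 9. Within the clusters named leptotene-zygotene it was -0.05 (337 control and 243 cKO cells) and -0.50 (268 and 98 cells). In spermatogonia Sycp2 lay at 1.08 and 1.02 times free RNA. In round spermatids (79.9 and 69.5 CPM) and in elongating spermatids it lay below its free-RNA level in both libraries. Free RNA was not subtracted in the spermatid gates, so the differences there cannot be told apart from that in free RNA.

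Hormad1 was also on the lower side in all 7 stages, with intervals below 0 in 6 of them. Its log2 ratio was -0.03 (-0.11 to 0.06) at leptotene-zygotene and -0.21, -0.23 and -0.23 in the 3 pachytene bins. At leptotene-zygotene it ran from -0.24 to 0.05 over 9 alternatives, above 0 in 2 of them. Within the 2 clusters of that name it was -0.17 and -0.53, the latter in the cluster with 98 cKO cells and 24.3% doublets. Its largest differences among the gates were -0.51 (-0.94 to -0.08) in spermatogonia and -0.45 (-0.78 to -0.12) at meiotic entry. It passed 1.5-fold in spermatogonia with free RNA subtracted (-0.77) and at meiotic entry with a minimum of 5000 UMIs (-0.67). In elongating spermatids it stood at -0.29, and passed 1.5-fold without doublets (-0.61) and with stages from clusters (-0.62). Hormad1 stood there at 20.9 and 17.1 CPM and in round spermatids at 23.2 and 20.3 CPM. Both gates thus lay below the 49.7 and 48.9 CPM of its free RNA, which was not subtracted in them. Hormad2 had no interval clear of 0 in any stage.

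The other germ-cell stages were counted the same way. In spermatogonia 0 of 8 genes with enough UMIs did (11.9% of all genes), in diplotene-division 0 of 9 (8.75%), in round spermatids 0 of 9 (10.5%) and in elongating spermatids 0 of 9 (8.87%). At meiotic entry 1 of 8 did, on the lower side, against 20.1% of all genes in either direction and 14.3% on that side. This was Tex12, with 192 UMIs in control and 30 in cKO cells (170 and 95.2 CPM, log2 -0.84, -1.44 to -0.28). That gate held 188 control and 55 cKO cells, and the 9 genes summed to a log2 ratio of -0.25 (-0.34 to -0.16) there, against a median of -0.09 over all genes, and to -0.13 with stages from clusters. Its leptotene-zygotene markers summed to 2444 CPM in control and 1827 CPM in cKO cells, with 1 of the 10 at 0 in the cKO, and their part in the ratio was not tested.

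In Leydig cells 5 of 7 genes with enough UMIs were past 1.5-fold higher in the cKO library (10.4% of all genes were), led by Sycp3 with 59 UMIs in 105 control cells and 123 in 101 cKO cells. The 9 genes summed to a log2 ratio of 0.58 (0.42 to 0.75) in this gate, but to -0.23 (-0.40 to -0.06) in the Leydig cluster of 118 control and 106 cKO cells, where Sycp3 stood at 0.08 and Sycp1 at -0.79. All 9 genes were at or under 1.11 times their free-RNA level in both Leydig gates.

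Summed over all cells, without stages, Sycp2 stood at 248 CPM in control and 185 CPM in cKO cells (log2 -0.42), Hormad1 at 145 and 114 CPM (-0.35) and Sycp1 at 411 and 370 CPM (-0.15). Hormad2 (-0.22), Sycp3 (-0.15), Syce2 (-0.15) and Tex12 (-0.03) were on the lower side too. Only Syce1, at 484 and 520 CPM (0.10), and Syce3, at 205 and 238 CPM (0.22), were higher. In these sums the share of each stage and the level within it cannot be told apart.

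The other genes of the axis, of synapsis and of crossover formation were read from a list of which 29 were measured. At leptotene-zygotene 6 of 28 with enough UMIs were past 1.5-fold lower in the cKO library and 1 higher (13.1% and 2.72% of all genes). The lower ones were the cohesin subunit gene Rad21l (log2 -0.84), Ccdc36 (-0.80), which encodes the axis platform for break formation, Brca2 (-0.88), whose protein loads the recombinases, and the crossover genes Tex11 (-0.63), Msh4 (-0.77) and Shoc1 (-0.80). Brca2 had 975 UMIs in control and 249 in cKO cells (257 and 139 CPM), the best counted of the 6. Rad21l had 76 and 20, with an interval from -1.63 to -0.11. In the control library Rad21l, Ccdc36, Brca2, Tex11 and Shoc1 stood higher at meiotic entry than here (Brca2 at 423 CPM), and Msh4 lower. The 2 leptotene-zygotene clusters held 337 and 268 control cells against 243 and 98 cKO cells, and the part of this mix was not tested. Rnf212, a crossover regulator, was higher (0.61, 0.05 to 1.16). The median over the list was -0.18, against -0.02 over the 9 genes and -0.08 over all genes tested.

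In pachytene cells 1 of 26 listed genes was past 1.5-fold, Ccdc36 at 12.0 CPM in control and 7.48 CPM in cKO cells (log2 -0.68), where 4.18% of all genes were past 1.5-fold lower and 1.91% higher. The list's median was 0.07 there and that of the 9 genes 0.13. Within the 3 Pou5f2 bins the list's median was -0.01, -0.09 and -0.08 and that of the 9 genes 0.08, -0.01 and 0.05. In the bins 2 of 26, 4 of 25 and 4 of 23 listed genes passed 1.5-fold in either direction, against 6.83%, 7.69% and 6.37% of all genes. Smc1b, the meiotic SMC subunit of cohesin on the same axis, stood at 476 and 483 CPM, and Stag3, its partner, at 175 and 158 CPM.

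The other stages were read the same way, and the genes named for them were chosen after their values were seen. In elongating spermatids 6 of 26 listed genes were past 1.5-fold lower (Stag3, Ankrd31, Brca2, Shoc1, Hfm1 and Mlh3) and 0 higher, where 8.05% of all genes were lower. The list's median was -0.21 there, against -0.11 over all genes. Free RNA was not read for the listed genes and was not subtracted in this gate. There the 4 axis genes, Sycp1 and Tex12 lay at or under 0.49 times their free-RNA level, and the part of free RNA was not tested. At meiotic entry 5 of 23 were lower (Ccdc36, Ankrd31, Shoc1, Spo11 and Prr19) and 3 higher (Rec8, Rec114 and Mlh3), against 14.3% and 5.88% of all genes. In spermatogonia 3 of 17 passed in either direction (Hfm1 and Mlh3 lower, Rec114 higher), against 11.9% of all genes. In diplotene-division 0 of 25 passed (8.75%), and in round spermatids 2 of 27 (Mlh3 lower, Ccnb1ip1 higher; 10.5%).

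In cKIT+ spermatogonia, which precede the peak of these genes, open chromatin was already called at their start sites. An ATAC-seq peak lay within 1 kb of a RefSeq start site for 9 of 9 genes in both control libraries (36.9% and 46.3% of all genes) and for 8, 9 and 9 in the cKO libraries (28.6%, 35.1% and 49.4%). The missing one was Hormad1 in cKO replicate 1, whose peak list was the shortest, with 14635 peaks against 40497 in the longest. The authors' peak caller gave the fold enrichment of each peak. Sycp2 had the highest values, 7.07 and 7.14 in the controls and 8.67, 9.83 and 7.80 in the cKO libraries. Sycp1 had 4.13 and 5.30 against 5.25, 5.63 and 5.52, and Hormad1 3.47 and 6.27 against 3.66 and 5.32. The values come from lists of different length and are used here only to describe the peaks.

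**Figure D5:**
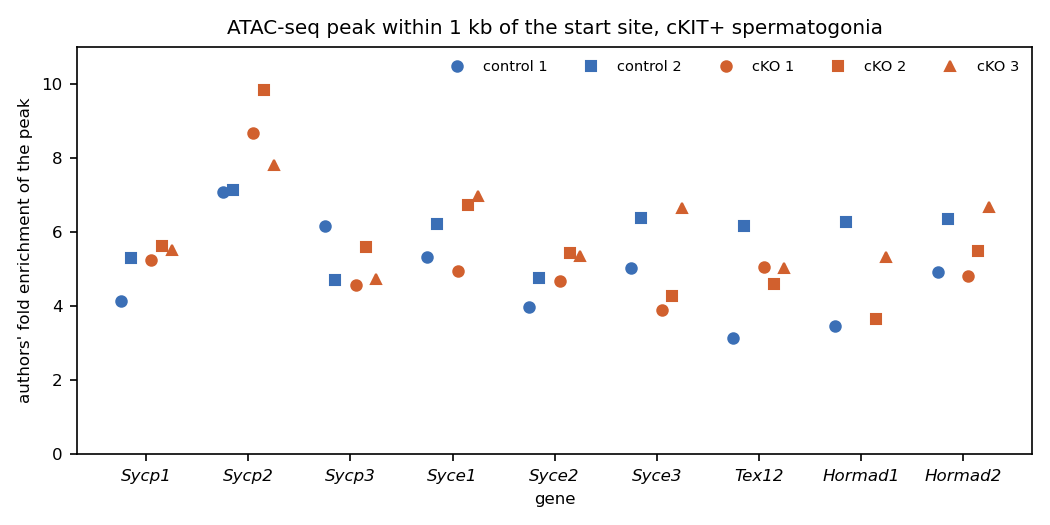
Fold enrichment that the authors' peak caller gave the ATAC-seq peak within 1 kb of the start site of each gene, by library (control blue, cKO orange, symbols for replicates). Sycp2 has the highest values, from 7.07 to 9.83, and Hormad1 has no point for cKO replicate 1.

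H3K27me3 regions, the mark that KDM6A removes, lay within 1 kb of a start site for 0 of 9 genes in each of the 2 control libraries (12.2% and 15.0% of all genes) and in each of the 3 cKO libraries (7.91%, 10.0% and 13.7%). The IgG library had 0 of 9 (0.625%). At 5000 bases, Syce1 had a region in cKO replicate 2, in no other library, and 13.7% of all genes had one.

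The motifs were searched in RefSeq windows from 250 bases before to 50 after each start site, on both strands, and all 9 genes had a window. TCCCGC and CACGTG each occurred in 5 of the 9 genes, and in the same ones, Sycp1, Sycp3, Syce2, Tex12 and Hormad1. Over the 27025 genes with a window, 22% held TCCCGC, 8.09% CACGTG and 2.32% both. The E-boxes can be seen in the sequences given at the start, with 2 in Sycp3 and 2 in Hormad1; in Sycp1 the TCCCGC lies after the start site, outside the printed run. CNCCTCAG, described for STRA8 and MEIOSIN, occurred in Sycp1, Syce2, Tex12 and Hormad2, and in 9.12% of all genes. A match is a run of letters and not a measured site. Syce2 shared the motifs but not the stage course of the other 4, and Sycp2, whose course was like theirs, held none of the 3 motifs in its window.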

How the data were processed

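Single-cell RNA came from 1 control and 1 cKO whole testis, as 10x 3′ v3.1 libraries per the labels. The deposited counts are whole UMIs per gene and barcode for the kit's whole barcode list, from Cell Ranger on mm10 with no cells selected, per the file headers and the submitters' processing notes; 57.8% and 57.5% of UMIs lay in the barcodes used. A cell took the stage with the highest mean z-score of log(1 + UMIs per 10000) over a marker list, scaled over the cells of both libraries together, at a minimum of 0.3. Meiotic entry needed 2 UMIs of Stra8 and Gm4969, and a somatic gate 2 genes and 3 UMIs. The genes, lists and rules were chosen with earlier results of these data known, and the gate scoring and Pou5f2 bins after seeing these data. Levels have exact Poisson, shares exact binomial (Clopper-Pearson) and ratios exact conditional 95% intervals (python 3.11.15, numpy 2.4.6, scipy 1.17.1, pandas 2.3.3, scanpy 1.11.5). A droplet UMI interval covers counting error only. The code was tested on simulated data. Scrublet marked 5.25% of control and 6.01% of cKO cells as doublets, which were kept except in an alternative. Stages from Leiden clusters also kept doublets, which made up 79.2% of a cluster named pachytene and 58.3% of a cluster named round spermatid. In another alternative free RNA was subtracted from each gate and library up to diplotene-division. Its amount was set so that all Prm1, Prm2, Tnp1 and Tnp2 UMIs of the gate counted as free RNA, whatever their source. Counts were not allowed to become negative. Named genes were the 9, Kdm6a, listed genes past 1.5-fold at leptotene-zygotene or in pachytene and up to 5 others (Smc1b and Stag3), and the 5 with the most similar profile; listed genes named for other stages fall outside this rule and were chosen after their values were seen.

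ATAC-seq peaks were called per library by the authors with MACS2; the deposited lists give a display score, a fold enrichment (ratio) and −log10 p and q values, of which only positions and fold are used. H3K27me3 and IgG regions were called with SEACR, per the submitters' processing notes, and the deposited signal per region was not used beyond presence. Peak lists and RefSeq windows are both on the mm10 (GRCm38) build, and 9 of 9 genes matched. The bulk RNA files list transcripts without gene names and are not analysed here.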

Additional observations from a re-analysis of the deposited data

How the results depend on the processing

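No paired analysis was possible because each genotype has 1 single-cell library and the peak results come from no test. The 9 summed genes at leptotene-zygotene, 0.05 on the log2 scale, turned to -0.14 when free RNA was subtracted, and were 0.10 with a minimum of 2000 UMIs, 0.091 in cells clear of the next gate, 0.13 scaled to the median gene and 0.017 without doublets. Syce2 there, -0.33, ran from -0.50 with free RNA subtracted to -0.11 with a minimum of 2000 UMIs. With free RNA subtracted, Sycp1 turned to -0.14, Sycp3 to -0.010 and Syce3 to -0.015 there. In pachytene the sum, 0.09, was 0.11 in cells clear of the next gate, 0.12 scaled to the median gene, 0.12 with free RNA subtracted, 0.13 as a mean over cells and 0.034 with stages from Leiden clusters. The elongating spermatid sum, -0.06, turned to 0.044 when scaled to the median gene. Before that scaling 8 of the 9 genes lay below 0 in this gate and 1 above. Syce2 in elongating spermatids against leptotene-zygotene, 0.78 in the control library, was 0.98 with a minimum of 5000 UMIs, 0.87 without doublets and 0.89 with clusters; in the cKO library 1.09 became 0.85 with a minimum of 2000 UMIs. H3K27me3 at 5000 bases gave 1 gene in cKO replicate 2 in place of 0.

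The count past 1.5-fold was 0 at leptotene-zygotene and in pachytene under each of the 12 alternatives run. All 9 genes were already tested in both stages. The 2-fold rule and the minimums of 20 and 200 UMIs per gene therefore could not raise a count of 0. At meiotic entry the count of 1 became 3 with a minimum of 5000 UMIs or with free RNA subtracted, 2 with genes of at least 20 UMIs or with clusters, and 0 at 2-fold. Free RNA subtraction gave 4 in spermatogonia and 1 in diplotene-division. Its counts in spermatogonia and at meiotic entry include Syce1, at log2 -7.44 and -6.60, where almost no Syce1 UMIs were left in the cKO library. Before subtraction Syce1 lay at 0.63 and 0.48 times free RNA in spermatogonia, so these values are no measure of a genotype difference. In elongating spermatids, where 0 passed, Sycp2 did with a minimum of 2000 UMIs or in cells clear of the next gate (count 1), and Sycp2 and Hormad1 without doublets or with clusters (count 2); these names were read out after seeing the data. The sum at meiotic entry, -0.25, was -0.13 with clusters, and that in Leydig cells turned from 0.58 to -0.23. Each of the 9 genes kept its sign in pachytene in all 9 alternatives run for it, Sycp2 and Hormad1 below 0 and the others above. The Pou5f2 bins are not among these alternatives, and Sycp1, Sycp3 and Hormad2 had bins on both sides of 0. Leaving out the shared barcodes, added after seeing the data, changed no direction of a sum. The bulk transcript alternatives were not run, and free RNA was not subtracted in round and elongating spermatids. Depth limits Hormad2, which had under 50 UMIs in spermatogonia and at meiotic entry, and the gate of 55 cKO cells at meiotic entry.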
